A study of Homo sapiens with 6 samples.

Results

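A set of 7 interferon-induced genes, 6 of them for small membrane proteins, was followed in MDA-MB-231 cells, a human line from a triple-negative breast cancer: IFITM1, IFITM2, IFITM3, IFI6, IFI27, BST2 and LGALS3BP. They are the 7 genes, of 28675 in the count table, whose symbol matched the fixed list of names. Messenger RNA was sequenced from 3 libraries of cells with a no-load control and 3 libraries of cells made to overexpress LARP6, a La-related protein that binds RNA. The labels name no vector, promoter, clone or time for either group, and both groups share the line and its culture. The series was set up to find the RNAs that LARP6 binds and regulates in this cancer type. The genes were chosen by symbol, with earlier results of this LARP6 against control contrast in view (their lower levels in LARP6 libraries), so the differences of the 7 genes in it are a description of these libraries and not independent support for a direction.

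The 7 proteins sit in or at membranes, or are secreted, and their genes are switched on by interferons. Interferon binds its receptors, JAK kinases activate transcription factors, and a complex that holds STAT2 and IRF9 binds the interferon-stimulated response element (ISRE) before the target gene. A different site, the gamma-activated sequence (GAS), also serves interferon responses. IFITM1, IFITM2 and IFITM3 are short transmembrane proteins that hinder the fusion of virus and cell membranes. IFI6 and IFI27 are small hydrophobic proteins of one family, found at the endoplasmic reticulum and mitochondria. BST2, or tetherin, holds budding virus particles at the cell surface. LGALS3BP is a secreted glycoprotein that binds galectins, and with a coding sequence of 1755 bases, against 366 to 540 for the others, it is neither small nor a membrane protein.

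The sequence before each gene is shown first, since no expression value enters it. A RefSeq start site on GRCh38.p14 was matched for 6 of the 7 genes (IFITM1, IFITM3, IFI6, IFI27, BST2 and LGALS3BP), and the ISRE core was searched as GAAA, any 2 bases and GAAA again, on both strands, from 250 bases before the start to 50 bases after it. All 6 held at least 1 match and 5 held 2 or more. Of 35116 windows of this length in the RefSeq table, 3.57% held a match and 0.259% held 2 or more. The 170 bases before the start are shown because the matches of all 6 genes lie there or at the start itself, 5′ to 3′ on the strand of the gene, with the ISRE core in capitals.
IFITM1: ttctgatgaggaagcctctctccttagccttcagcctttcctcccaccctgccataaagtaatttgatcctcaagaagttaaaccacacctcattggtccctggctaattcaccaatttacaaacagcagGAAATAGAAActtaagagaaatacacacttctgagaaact
IFITM3: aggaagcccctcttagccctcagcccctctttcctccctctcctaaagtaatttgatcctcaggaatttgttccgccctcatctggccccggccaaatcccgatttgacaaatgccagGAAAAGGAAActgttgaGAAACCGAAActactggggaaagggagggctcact
IFI6: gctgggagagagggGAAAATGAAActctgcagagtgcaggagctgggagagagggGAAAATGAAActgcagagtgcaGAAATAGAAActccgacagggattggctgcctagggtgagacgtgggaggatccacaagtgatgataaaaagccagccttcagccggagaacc
IFI27: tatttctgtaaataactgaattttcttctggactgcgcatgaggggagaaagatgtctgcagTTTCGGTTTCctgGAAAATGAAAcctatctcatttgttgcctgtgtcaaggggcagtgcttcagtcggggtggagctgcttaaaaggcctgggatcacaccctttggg
BST2: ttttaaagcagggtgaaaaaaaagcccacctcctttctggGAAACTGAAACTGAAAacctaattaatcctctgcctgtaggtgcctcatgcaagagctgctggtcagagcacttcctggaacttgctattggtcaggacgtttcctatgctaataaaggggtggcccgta
LGALS3BP: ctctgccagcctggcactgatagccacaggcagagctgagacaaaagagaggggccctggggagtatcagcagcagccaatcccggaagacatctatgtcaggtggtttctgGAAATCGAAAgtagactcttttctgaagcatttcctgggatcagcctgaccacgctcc

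These stretches are chr11:313870-314039 on the plus strand for IFITM1, chr11:320861-321030 on the minus strand for IFITM3, chr1:27672193-27672362 on the minus strand for IFI6, chr14:94110566-94110735 on the plus strand for IFI27, chr19:17405631-17405800 on the minus strand for BST2 and chr17:78979924-78980093 on the minus strand for LGALS3BP. IFI6 had 3 cores, beginning 156, 115 and 93 bases before the start. IFITM3 had 2, at 52 and 35 bases, and BST2 had 2 that overlap, at 130 and 124 bases. In IFI27 the 2 cores lay on opposite strands, at 108 and 95 bases, and a second RefSeq start of the gene placed the same cores at 187 and 174 bases. IFITM1 had 1 core at 40 bases and another at 6 bases that runs across the start, so it is not in capitals above. LGALS3BP had a single core, at 58 bases. The GAS, searched as TTCNNNGAA, which reads the same on both strands, matched in 3 of the 6 genes (IFITM1, IFI27 and BST2), against 7.66% of all windows. In IFITM1 and BST2 a GAS match shared bases with an ISRE match, and in IFI27 it overlapped both cores. These are matches of letters and not measured binding sites, and the genes were listed as interferon-induced, so they are no independent finding.

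**Figure D1:**
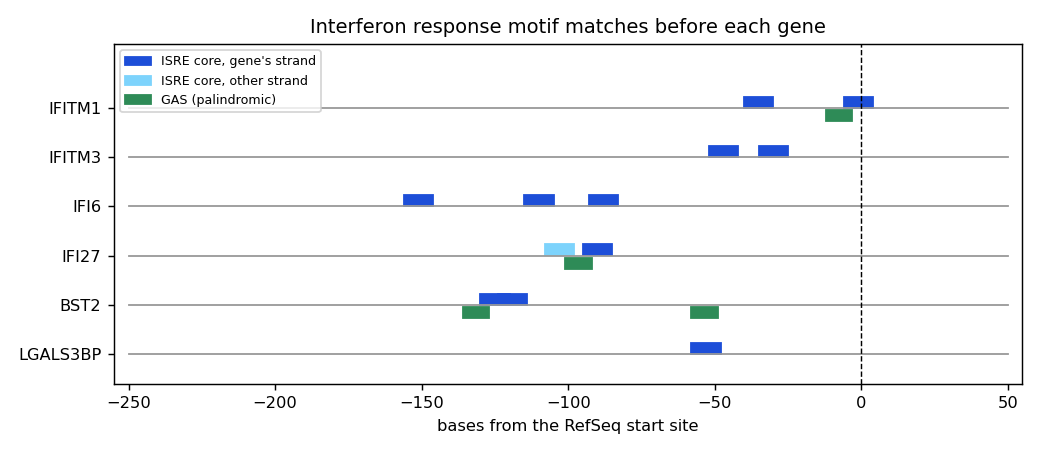
Positions of ISRE core and GAS matches in the 300 bases around the RefSeq start of 6 genes, in bases from the start (dashed line). Blue bars are ISRE cores on the gene's strand, the light blue bar is on the other strand and green bars are GAS matches. IFI6 has 3 cores and LGALS3BP 1.

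The ISRE core was also counted in other genes of the interferon system. It was found before 28 of 44 cytosolic and nuclear effector genes with a window, 63.6%, and before 10 of 16 other membrane or secreted interferon-induced genes, 62.5%. It was found before 0 of 8 signal transducers. Outside the 7 genes, 439 tested genes had at least 1 core, of which 21 were called higher and 13 lower in the LARP6 libraries (4.78% and 2.96%), against 2.66% and 3.81% of the 11136 tested genes with any window. Of the 40 with 2 or more cores, 3 were called higher and 4 lower.

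Depth was 29409101 to 33387050 counts per library. LARP6 itself went from 42.7 ± 1.85 to 2108 ± 104 CPM (scaled counts; SD, n = 3 each), and each library matched its label. CPM is the read count over the library's size after scaling by the trimmed mean of M-values (TMM). The mesenchymal genes VIM and CD44 stood at 3151 and 761 CPM in controls and the hormone receptor genes ESR1 and PGR at 0 and 0.149 CPM. ERBB2 was at 57.2 CPM. Of the leukocyte markers listed, PTPRC, CD3E, CD68 and ITGAM were in the table, and their summed level was 4.20 to 4.94 CPM over the controls and 4.42 to 5.06 CPM with LARP6, most of it CD68. Nothing in the labels states that the libraries were grown as separate cultures, and the p-values then measure no more than how these libraries vary, and that variation may be technical.

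All 7 genes passed the filter on low counts, and all were well expressed by CPM, which is not scaled for length, from the 69.5th percentile of tested genes for IFITM1 to the 99.1st for LGALS3BP. Together they took 0.213%, 0.218% and 0.213% of counts in the control libraries and 0.193%, 0.197% and 0.199% in the LARP6 libraries. Their summed level was 2167 ± 28.8 CPM over the controls and 1947 ± 42.6 CPM with LARP6 (SD, n = 3 each). In bulk libraries, fewer cells that make an RNA and less RNA per cell cannot be told apart.

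Each of the 7 genes was lower in every LARP6 library than in every control library, in the fitted values by 7.2% (BST2) to 16.0% (IFITM1, IFI6 and IFI27). Lower without overlap held for 11.7% of the 16226 genes tested. With edgeR's quasi-likelihood test and Benjamini-Hochberg adjustment over all genes at 0.05, all 7 were called lower and 0 higher, where 3.60% of genes were called lower, 2.43% higher and 6.03% either way. By library size alone the split over all genes was 687 higher and 303 lower, against 395 and 584 with TMM. The median log2 fold change was -0.18 over the 7 genes and 0.00 over all genes tested. Since the contrast was known when the list was made, nothing is read from these counts.

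IFITM3, which blocks viruses that enter through endosomes, is a minus-strand gene of chromosome 11 spanning 319669 to 327537 (GENCODE v29 on GRCh38, as are the positions that follow). It measured 614, 625 and 624 CPM in control libraries 1, 2 and 3 and 536, 558 and 553 CPM in LARP6 libraries 1, 2 and 3. The highest LARP6 library was 9.07% of the control mean below the lowest control library, the widest gap of the 7 genes. This was a log2 difference, LARP6 minus control, of -0.18 ± 0.03 (SE, edgeR adjusted p = 5.63e-08).

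IFITM2 acts like IFITM3 at endosomes and lies beside it, from 307631 to 315272 on the plus strand of chromosome 11. Control libraries stood at 90.9, 89.7 and 86.4 CPM and LARP6 libraries at 78.5, 76.9 and 85.0 CPM. LARP6 library 3 came within 1.51% of the control mean of the lowest control library, the narrowest gap of the 7 genes. The log2 difference was -0.15 ± 0.04 (SE, edgeR adjusted p = 0.00567). Its call was lost without LARP6 library 1 (edgeR adjusted p = 0.0601), without LARP6 library 2 (0.121), and with offsets for GC content and length (0.143).

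IFITM1, which stays mostly at the cell surface, lies from 313506 to 315272 on the plus strand of chromosome 11. It was the least expressed of the 7, also per length, with control libraries at 40.3, 44.3 and 45.9 CPM and LARP6 libraries at 35.4, 37.1 and 37.1 CPM. Control library 1 was the lowest control, and all LARP6 libraries were below it. The difference in log2 was -0.25 ± 0.05 (SE, edgeR adjusted p = 0.000228).

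IFITM1 and IFITM2 overlap in GENCODE v29, so how their reads were split in the counting is uncertain. The coding sequences of IFITM2 and IFITM3 were identical at 93.2% of aligned bases, those of IFITM1 and IFITM3 at 67.1%, and those of IFITM1 and IFITM2 at 66.0%. The longest identical run was 99 bases between IFITM2 and IFITM3 and 141 bases between IFITM1 and IFITM3. A read of 150 bases could therefore not lie wholly within such a run, and no window of 150 bases was shared between annotated transcripts of IFITM3 and those of the other two. IFITM1 and IFITM2 shared 214 windows of 150 bases, which were 30.3% of the windows of the IFITM1 transcript used. A stretch that overlaps the longest run of IFITM2 and IFITM3 is shown to let the likeness be seen, from coding base 205 to 324 of IFITM2 and 208 to 327 of IFITM3, 5′ to 3′, with capitals where the 2 differ.
IFITM2: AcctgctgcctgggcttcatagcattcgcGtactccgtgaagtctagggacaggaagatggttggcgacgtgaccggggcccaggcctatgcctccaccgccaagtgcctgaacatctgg
IFITM3: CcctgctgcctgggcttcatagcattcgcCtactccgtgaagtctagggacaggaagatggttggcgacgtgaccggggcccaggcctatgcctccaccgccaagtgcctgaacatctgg

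In this stretch 2 of 120 bases differed. With the counts of the 3 IFITM genes summed to 1 value, which is not touched by reads moved among them, the log2 fold change was -0.18. IFITM3 dominates this sum, at 621 CPM in controls against 89.0 for IFITM2 and 43.5 for IFITM1, so the sum says little of IFITM1 and IFITM2. Any reads that the counting left out as shared are not recovered by summing. The nearest tested protein-coding genes with a GENCODE v29 position on either side of the cluster were not called. PGGHG, below it, was at 5.59 CPM without and 5.47 CPM with added LARP6, and B4GALNT4, above it, was at 4.52 and 4.29 CPM. Several antisense and long noncoding genes overlap IFITM2 and IFITM3 and were near 0, the highest being RP11-326C3.7 at 0.589 and 0.546 CPM. The strand setting of the counting is not known, so reads of these genes and of their antisense partners cannot be told apart.

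IFI27, also called ISG12, spans 94104836 to 94116698 of chromosome 14, plus strand. It measured 222, 251 and 234 CPM in the control libraries and 191, 200 and 203 CPM with LARP6. LARP6 library 1 was lowest and control library 2 highest, and the groups did not overlap. In log2 the difference was -0.25 ± 0.03 (SE, edgeR adjusted p = 5.63e-08), a fall of 16.0%. Its paralogs on either side, IFI27L1 and IFI27L2, were not called, at 39.1 and 38.2 CPM and at 37.6 and 36.7 CPM in controls and LARP6 libraries. DDX24, 23591 bases away, was not called either (187 and 189 CPM). SERPINA1, 260049 bases away, was called lower at 53.0 and 41.1 CPM (-0.37 ± 0.05 in log2, SE, edgeR adjusted p = 1.45e-09).

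IFI6, a relative of IFI27 known for opposing cell death and flavivirus replication, spans 27666061 to 27672218 of chromosome 1, minus strand. It measured 56.8, 66.1 and 58.9 CPM in the control libraries and 48.3, 50.4 and 53.8 CPM with LARP6. Its controls varied most among the 7 genes, with a coefficient of variation of 8.01%, and control library 2 stood highest. On the log2 scale it fell by 0.25 (SE 0.05, edgeR adjusted p = 5.93e-05). The coding sequences of IFI6 and IFI27 were identical at 49.8% of aligned bases with no identical run above 10 bases. The long noncoding gene LINC02574, which lies 3339 bases from IFI6 and was picked after its values were seen, was at 28.3 and 21.3 CPM (-0.41 ± 0.07 in log2, SE, edgeR adjusted p = 5.21e-06). AHDC1, on the same side as LINC02574 and 61630 bases from IFI6, was not called (20.7 and 22.5 CPM). On the other side of IFI6, FAM76A, 53761 bases away, was not called (11.2 and 12.3 CPM). STX12, 100965 bases away, was called higher at 26.9 and 30.4 CPM (0.18 ± 0.06 in log2, SE, edgeR adjusted p = 0.0484).

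BST2 spans 17402939 to 17405648 of chromosome 19, minus strand. It measured 297, 310 and 300 CPM in the control libraries and 275, 282 and 285 CPM with LARP6, so that all LARP6 libraries were below all controls. The log2 difference was -0.11 ± 0.03 (SE, edgeR adjusted p = 0.0065). The call was lost without LARP6 library 1 (edgeR adjusted p = 0.0893), without control library 2 (0.103) and with GC and length offsets (log2 fold change -0.05, adjusted p = 0.355). The long noncoding gene BISPR, 38 bases away and known to be induced with BST2, was at 11.2 and 10.6 CPM and was not called (edgeR adjusted p = 0.706). MVB12A, 74 bases away, was not called (76.1 and 72.8 CPM), nor were ANO8 and GTPBP3 on the other side of BST2.

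LGALS3BP spans 78971238 to 78980109 of chromosome 17, minus strand. It measured 817, 810 and 817 CPM in the control libraries and 736, 754 and 767 CPM with LARP6. The controls differed by a coefficient of variation of 0.477%, the least of the 7 genes. It fell by 0.11 on the log2 scale (SE 0.03, edgeR adjusted p = 0.000885), and with GC and length offsets it was -0.06 (adjusted p = 0.114). The neighbouring genes TIMP2 (518 and 498 CPM) and CANT1 (112 and 107 CPM) were not called.

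**Figure D2:**
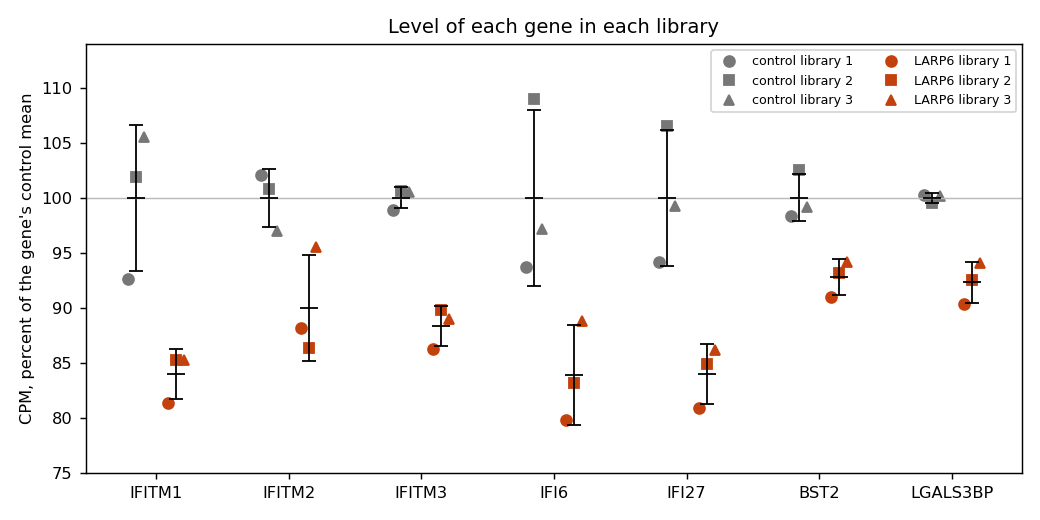
Level of each gene in each library, as a percentage of that gene's mean CPM over the 3 control libraries; the axis starts at 75. Grey symbols are controls, orange symbols LARP6 libraries, and black bars the mean ± SD of 3 libraries. Every LARP6 library lies below every control library for each gene, with the smallest gap, 1.51% of the control mean, in IFITM2.

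Across the 7 genes, LARP6 library 1 was the lowest of all 6 libraries for 6 genes and LARP6 library 2 for 1, IFITM2. Among the LARP6 libraries, library 3 was the highest for 5 genes and library 2 for the other two, IFITM1 and IFITM3. Control library 2 was the highest of all for 4 genes (IFITM3, IFI6, IFI27 and BST2). Control library 1 was the lowest control for 5.

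The direction was lower for all 7 genes under each of 19 alternative fits, while the calls varied. The replicate block called 7, where 5.10% of genes were called lower. Called lower were 5 of the 7 without LARP6 library 1, where 1.71% of genes were, 6 without LARP6 library 2, where 1.70% were, and 6 without control library 2, where 2.34% were. All 7 were called lower when scaled by library size only, with DESeq2 and with limma-voom, where 1.87%, 3.73% and 3.45% of genes were. With GC and length offsets 4 of the 7 were called (IFITM1, IFITM3, IFI6 and IFI27), where 2.68% of genes were called lower. Tested as log2 of the deposited FPKM plus 1 with limma, 1 of the 7 (IFITM3) was called, where 0.327% of genes were called lower, and with 0.1 in place of 1 it was again 1, where 0.333% were. With the FPKM of all genes and no filter limma called 0, where 0.00706% of genes were called, and all 7 had an unadjusted p below 0.05. The share of all genes below that unadjusted p was not counted, so nothing is read from the latter.

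**Figure D3:**
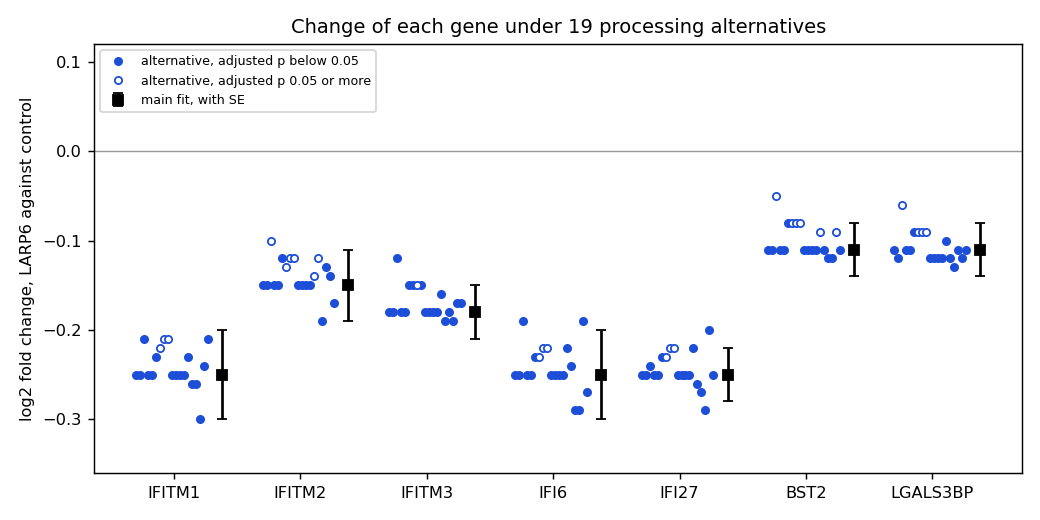
Log2 fold change of each gene, LARP6 against control, under 19 processing alternatives (blue circles, filled where the adjusted p was below 0.05) and in the edgeR fit of the counts (black squares, bars are SE). Every value lies below 0, and BST2 comes nearest to it at -0.05 with GC and length offsets.

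Levels of different genes can be compared only per length, and here the order depended on the length used. In the deposited FPKM (fragments per kilobase, scaled for library size), BST2 stood highest in controls at 240 ± 4.87, followed by LGALS3BP at 208 ± 1.60 and IFITM3 at 191 ± 1.05 (SD, n = 3 each). These were followed by IFI6 at 56.6 ± 4.43, IFITM2 at 51.7 ± 1.58, IFI27 at 49.8 ± 2.96 and IFITM1 at 22.8 ± 1.42. The control libraries of IFI6 and IFITM2 lay close without overlap (53.4, 61.7 and 54.9 against 53.0, 52.0 and 49.9), and those of IFITM2 and IFI27 overlapped (47.1, 53.0 and 49.2 for IFI27). If FPKM were scaled by each library's total of deposited counts, counts and FPKM would imply lengths of 4694 bases for IFI27 and 3219 for IFITM3. The total that the authors scaled by is not known. For IFITM1 the same step gave 1886 bases, more than the gene's span from 313506 to 315272, so these lengths are rough and may be too long. In the GENCODE transcript with the longest coding sequence, IFI27 has 725 bases and IFITM3 808. Per kilobase of that transcript, IFITM3 stood highest in controls at 769 ± 7.37 CPM, ahead of LGALS3BP at 339 ± 1.62, IFI27 at 325 ± 20.2, BST2 at 297 ± 6.46, IFITM2 at 99.8 ± 2.64, IFI6 at 73.7 ± 5.91 and IFITM1 at 50.9 ± 3.39 (SD, n = 3 each). LGALS3BP and IFI27 differed here by less than the SD of IFI27. IFITM1 was lowest on both scales. The RNA forms present in the cells were not measured, so neither length is known to be the right one.

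**Figure D4:**
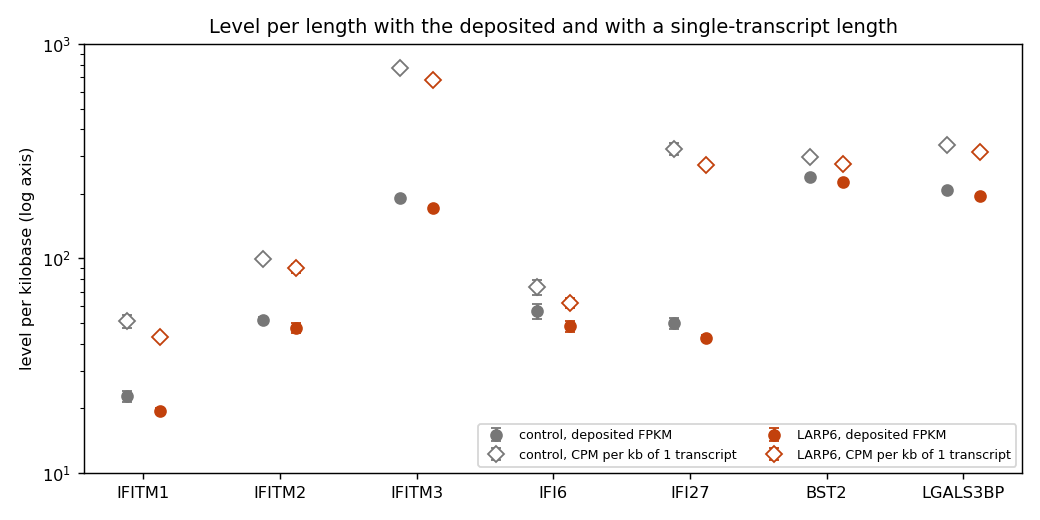
Level per kilobase of the 7 genes on a log axis, as the deposited FPKM (filled circles) and as CPM per kilobase of 1 GENCODE transcript (open diamonds), for controls (grey) and LARP6 libraries (orange); bars are SD of 3 libraries. IFI27 moves from 49.8 to 325 in controls and IFITM3 from 191 to 769.

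Other genes with the most similar course over the 6 libraries were sought for each of the 7, among 7354 protein-coding genes with a mean of at least 20 CPM. Likeness was the root mean square distance between log2 CPM values centred on each gene's mean. For IFITM3 the nearest were AMBRA1 and PMEPA1 at 0.010 and 0.013, where the median gene was at 0.098. For IFITM2 they were SLC25A22 and TMEM160 at 0.014 and 0.022, and for IFITM1 CEMIP and SDC4 at 0.032 and 0.037. CEMIP was also the nearest to IFI27, at 0.038, followed by RP11-326C3.17 at 0.039, a chromosome 11 gene without a description in the deposited table. RP11-326C3.17, at a mean of 51.8 CPM and -0.27 in log2, shares its clone name with noncoding genes that overlap IFITM2 and IFITM3. The neighbours given above did not include it, and whether it shares reads with the IFITM genes was not tested. UBAC1 and ICAM1 were nearest to IFI6 at 0.054 and 0.055, HDGF and VPS72 to BST2 at 0.011 each, and NAXE and POR to LGALS3BP at 0.007 and 0.008. With 7354 candidates and 6 libraries, such likeness is a description only.

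The other genes of the interferon system were counted in lists, by their place in the pathway. Of 13 listed ligands and receptors 7 were tested, and 0 were called by edgeR, with 3 at an unadjusted p below 0.05 (2 higher and 1 lower). By unadjusted edgeR p over the 16226 genes, SOCS1 at 0.0439 ranked 2905 and STAT2 at 0.0522 ranked 3160. Many genes thus lie below 0.05, and nothing is read from the unadjusted counts of this list and those that follow. DESeq2 called 0, with no adjusted p for the 3 lambda interferon genes IFNL1, IFNL2 and IFNL3. IFNL1 was called higher by limma-voom (adjusted p = 0.0271) and by limma on log2(FPKM + 1) (0.0285) and log2(FPKM + 0.1) (0.0344). With 3, 3 and 6 counts in the control libraries and 11, 10 and 14 with LARP6, it passed the filter on low counts only through the LARP6 libraries. These calls are therefore no support for a rise. IFNL1 had 0.0985, 0.102 and 0.183 CPM in the control libraries and 0.369, 0.329 and 0.441 CPM with LARP6 (log2 fold change 1.53 ± 0.53, SE, edgeR adjusted p = 0.0675). IFNL2 had 0 counts in each control library and 9, 5 and 7 counts in the LARP6 libraries, and its near-identical copy IFNL3 had 0, 1 and 1 and 2, 8 and 11 counts, so the 2 may share reads. The filter on low counts removed both, and in the edgeR fit without that filter both were called higher (adjusted p = 0.00275 and 0.0476), while IFNL1 was not (0.157). IFNL2 entered that fit only through the LARP6 libraries, and IFNL3 had few counts, nearly all of them there. These calls too are therefore no support for a rise. IFNLR1, a lambda receptor gene, stood at 7.41 ± 0.257 and 8.80 ± 0.798 CPM (SD, n = 3 each; edgeR adjusted p = 0.147). IL10RB, a receptor gene of the same list with 84 counts over the 6 libraries, went the other way at -0.76 in log2 and was not called.

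Of 12 signal transducers 0 were called by edgeR, DESeq2 or limma-voom, with 1 at an unadjusted p below 0.05 in edgeR. JAK2 was at 4.31 ± 0.582 and 5.31 ± 0.559 CPM (SD, n = 3 each; edgeR adjusted p = 0.178), and STAT2, part of the ISRE-binding complex, at 56.2 ± 5.12 and 59.8 ± 1.95 CPM (edgeR adjusted p = 0.268). Of 10 feedback inhibitors 0 were called by any of these tools, with 2 at an unadjusted p below 0.05 in edgeR. SOCS1, which blocks JAK kinases, was at 11.0 ± 0.566 and 9.60 ± 0.942 CPM (SD, n = 3 each; edgeR adjusted p = 0.245), and the phosphatase gene PTPN11 at 118 ± 6.44 and 124 ± 4.10 CPM (edgeR adjusted p = 0.232). The median log2 fold change was 0.01 over the transducers and 0.00 over all genes tested.

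Of 53 cytosolic and nuclear effectors, which act on viral RNA and proteins inside the cell, 7 were called higher and 1 lower, with a median log2 fold change of 0.05, where 2.43% of all tested genes were called higher and 3.60% lower. At an unadjusted p below 0.05, 15 were higher and 3 lower, without an exact share of all genes to set beside them. The RNA-binding effector genes IFIT2, IFIT1 and IFIT3 rose by 0.27 ± 0.03, 0.20 ± 0.03 and 0.12 ± 0.03 (log2, SE), and the 4 further genes called higher were ZC3HAV1, IFI44, DDX58 and HERC5. IFIT1, for one, measured 173, 169 and 163 CPM in the control libraries and 192, 197 and 191 CPM with LARP6. The guanylate-binding protein gene GBP2 was the one called lower, at -0.20 ± 0.04 (log2, SE, edgeR adjusted p = 0.000673). The 7 genes higher became 3 without LARP6 library 1, 4 without LARP6 library 2 or control library 3, 4 with DESeq2 or with GC and length offsets, and 11 when scaled by library size alone. With limma they were 2 on log2 of FPKM plus 1 or plus 0.1, where IFIT3 was not called (adjusted p = 0.0582 and 0.0513). On unfiltered FPKM 0 were called.

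Of 23 tested genes for other membrane or secreted interferon-induced proteins, 4 were called lower by edgeR and 0 higher. Over all genes tested 3.60% were called lower and 2.43% higher. At an unadjusted p below 0.05, 5 of the 23 were lower and 2 higher. Their median log2 fold change was 0.00 to 2 decimals. LY6E, a GPI-anchored surface protein gene known for acting on virus entry, measured 462, 465 and 460 CPM in the control libraries and 407, 397 and 422 CPM with LARP6 (log2 fold change -0.18 ± 0.03, SE, edgeR adjusted p = 1.29e-07). The secreted complement protease genes C1S and C1R fell by 0.72 (SE 0.12) and 0.32 (SE 0.07) on the log2 scale. TAP1, which pumps peptides for antigen presentation, fell by 0.10 (SE 0.03, edgeR adjusted p = 0.0334), and its call was lost without LARP6 library 1, LARP6 library 2, control library 2 or control library 3, with adjusted p from 0.0849 to 0.227. With GC and length offsets TAP1 was at -0.06 (adjusted p = 0.266), by library size alone at -0.07 (0.136), and with DESeq2 its adjusted p was 0.0554. DESeq2 called LY6E and C1R lower and gave no adjusted p for C1S.

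Of 10 tested relatives by sequence or domain, 0 were higher and 2 lower at an unadjusted edgeR p below 0.05. Where 3.60% of all genes tested were called lower by edgeR, 0 of the 10 were called higher and 1 was called lower. That gene was LOXL2, which shares the scavenger receptor cysteine-rich domain with LGALS3BP, at -0.12 ± 0.03 (log2, SE, edgeR adjusted p = 0.00224), and its call was lost without LARP6 library 2 (0.115). Of 14 tested genes for partners, tetraspanins and enzymes that handle these proteins, edgeR called 3 lower and 0 higher (3 and 1 at an unadjusted p below 0.05). They were the tetraspanin gene CD81 (-0.13 ± 0.03), BCAP31, which serves protein export from the endoplasmic reticulum (-0.11 ± 0.03), and GPAA1, a subunit of the enzyme that attaches GPI anchors such as that of BST2 (-0.11 ± 0.03; log2, SE). Their 3 calls became 1, CD81, without LARP6 library 2. The call of GPAA1 (edgeR adjusted p = 0.0357) was lost without any 1 of the 6 libraries, with adjusted p from 0.0516 to 0.158, with DESeq2 (0.0582) and by library size alone (0.138). With GC and length offsets the calls of BCAP31 (-0.06, adjusted p = 0.244) and GPAA1 (-0.04, 0.537) both ended. These lists also were made with earlier results known.

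**Figure D5:**
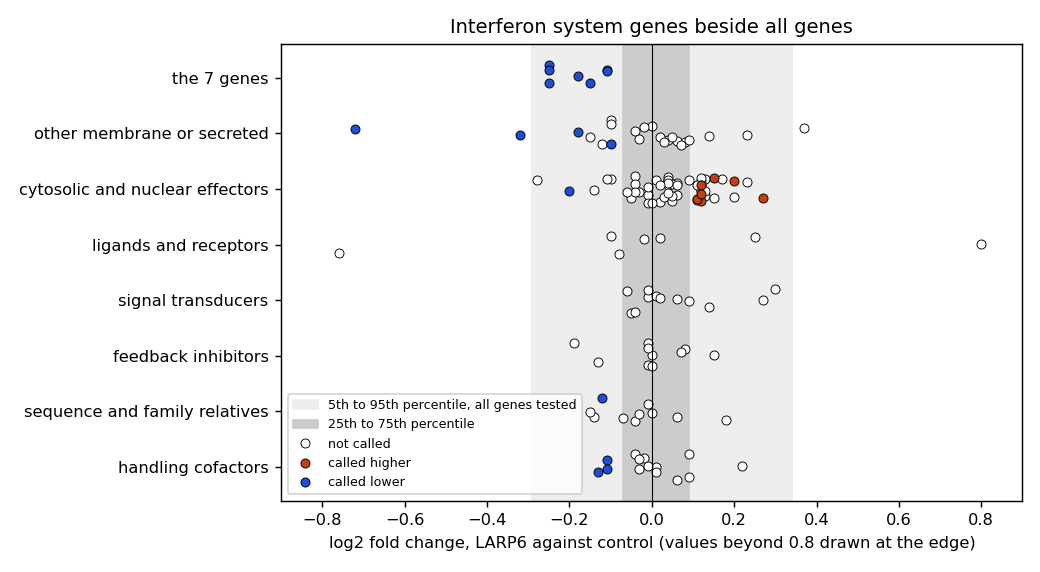
Log2 fold change, LARP6 against control, of the 7 genes and of the tested genes of 7 lists of the interferon system. Each circle is a gene, orange where called higher and blue where called lower by edgeR, and grey bands span the 5th to 95th (-0.29 to 0.34) and 25th to 75th (-0.07 to 0.09) percentiles of all genes tested. The 7 genes lie between -0.25 and -0.11; IFNL1, at 1.53, is drawn at the edge.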

How the data were processed

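The authors deposited 2 tables over the same 6 libraries, whole read counts per gene and FPKM per gene. The submitters' processing notes list HISAT2, DESeq2 and GRCh38. Which counter, strand option and annotation were used is not given in the sources used here, while per the labels' protocols the kit kept the strand. The main test of the deposited counts was run in edgeR 4.0.16 under R 4.3.3 (expression filter, TMM, robust quasi-likelihood fit, no covariate) over 16226 genes, with Benjamini-Hochberg adjustment and a threshold of 0.05. The spread between libraries gave a coefficient of variation of 3.23%. Counts per library of the 7 genes ran from 1058 for IFITM1 to 26794 for LGALS3BP, so counting noise weighs more on the least expressed of them. Alternatives included DESeq2 1.42.0, limma 3.58.1 on log2(FPKM + 1) and log2(FPKM + 0.1), a replicate block and each library left out. GC and length offsets took out each library's spline trend of log2 CPM on the GC content and length of the longest GENCODE v29 transcript, known for 16055 tested genes. Transcripts were aligned with Biopython 1.88. A comparison of proteins was planned, and coding sequences were compared in its place because no protein table was at hand. Scripts were tested on simulated counts. The members and lists were chosen with earlier results of these data known. Named genes are the members, LARP6, up to 4 called genes per list with the smallest p (or the 2 smallest where none was called) and the 2 nearest profiles per member; neighbouring genes, markers, IFNL2 and the other called effectors were added.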

Additional observations from a re-analysis of the deposited data

How the results depend on the processing

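No direction turned among the 7 genes under any of the 19 alternative fits. Genes called lower among the 7 were 4 with GC and length offsets, 1 on log2 of FPKM plus 1 or plus 0.1, 0 on unfiltered FPKM, 5 to 7 with each library left out in turn, and 7 under the others, the replicate block and an adjusted p below 0.01 included. Genes higher in all were 395 and genes lower 584. They became 165 and 385 with DESeq2, 687 and 303 by library size alone, 168 and 435 with GC and length offsets, 38 and 54 on log2 of FPKM plus 0.1, 37 and 53 on FPKM plus 1, 1 and 2 on unfiltered FPKM, 148 and 295 at an adjusted p below 0.01, and 175 to 398 and 281 to 642 with each library left out. For the stricter threshold fewer calls follow from its construction; for the others the cause was not tested. Where 2.43% of all genes tested were called higher and 3.60% lower, the 7 pathway lists held 7 higher and 9 lower among 127 distinct tested genes. These became 4 higher with DESeq2, GC and length offsets or an adjusted p below 0.01, and 11 with library size only. They were 3 higher and 2 lower on FPKM plus 1 or plus 0.1, 0 and 0 on unfiltered FPKM, and 3 to 6 and 5 to 10 with each library left out. With the replicate block, 518 genes were higher and 827 lower. The correlation of deviations was 0.035, 0.00727 and 0.0496 for libraries sharing a number, and -0.063 to 0.029 for those with different numbers. Such small values do not settle whether the labels' numbers pair libraries. CPM per kilobase of 1 transcript in place of FPKM gave, in controls and LARP6 libraries, 50.9 and 42.8 for IFITM1, 99.8 and 89.9 for IFITM2, 769 and 679 for IFITM3, 73.7 and 61.9 for IFI6, 325 and 273 for IFI27, 297 and 275 for BST2 and 339 and 313 for LGALS3BP, against FPKM of 22.8 and 19.5, 51.7 and 47.3, 191 and 172, 56.6 and 48.3, 49.8 and 42.5, 240 and 227, and 208 and 196. Without the 50 bases after the start, 6 genes still held an ISRE core and 3 a GAS.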
